A study of Mus musculus with 8 samples.

Results

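The 9 genes described here are markers of B lymphocytes: Cd79a, Cd79b, Ms4a1, Pax5, Cd22, Blk, Ebf1, Fcrla and Cr2. They were taken by symbol from a table of 13681 gene symbols measured in 8 mouse thymic lymphomas, and all 9 were present. Thymic lymphomas of p53-null mice are tumours of developing T cells, so B cell transcripts in them are those of a lineage other than the tumour's own. All mice were C57BL/6 and p53-/-, and were given an adenovirus by injection into the lymphoma at an age of 10 weeks, with tissue taken after 48 hours. The 2 control tumours (ΔNfl/fl;p53-/-) received Ad-mCherry. The 3 tumours of genotype ΔNp63Δ/Δ;p53-/- and the 3 of genotype ΔNp73Δ/Δ;p53-/- received Ad-CRE-mCherry, which adds Cre recombinase. ΔNp63 and ΔNp73 are the forms of the p53 relatives p63 and p73 made without the N-terminal transactivation domain. The control differs from the other groups in virus and genotype together, so effects of Cre and of a deletion cannot be told apart, and the label ΔNfl/fl does not say which gene is floxed. The labels name no promoter limiting Cre to a cell type and are silent on whether each library is a different mouse. The p-values therefore describe the spread among these samples alone, which may be technical. Values are listed in the order of replicates 1 to 2 or 1 to 3 of a group throughout.

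B cells recognise antigen through surface immunoglobulin, which signals through the paired chains encoded by Cd79a and Cd79b and through Src-family kinases such as the product of Blk. The coreceptor CD21 (Cr2) adds to that signal when antigen carries complement, CD22 restrains it, and CD20 (Ms4a1) is a membrane protein of mature B cells. Ebf1 and Pax5 encode the transcription factors that specify the B lineage and hold it, and Cd79a is a textbook target of both. Fcrla encodes an Fc receptor-like protein that stays inside B cells. A normal thymus holds a small population of B cells. In bulk tissue, fewer cells of a type and less RNA per cell cannot be told apart.

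Promoter sequence is shown for Cd79a, the most abundant member, and for Cd22, the member whose values differed most in pattern from the rest; Cd22 was chosen after its values were seen. Each run is the 250 bases before the RefSeq transcription start in build GRCm38.p6, read in the direction of the gene. Capitals mark matches to the motifs searched on both strands. Of the 9 members, 6 had an entry in the RefSeq promoter table. The Cd79a window is chr7:24897247-24897496, plus strand, and the Cd22 window is chr7:30879029-30879278, minus strand. The deposited table uses another build (mm9), and these coordinates were not joined to it.
Cd79a: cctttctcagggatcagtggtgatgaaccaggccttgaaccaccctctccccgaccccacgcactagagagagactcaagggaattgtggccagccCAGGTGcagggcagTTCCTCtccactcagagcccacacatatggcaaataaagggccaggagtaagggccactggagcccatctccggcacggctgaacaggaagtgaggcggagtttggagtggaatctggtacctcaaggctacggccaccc
Cd22: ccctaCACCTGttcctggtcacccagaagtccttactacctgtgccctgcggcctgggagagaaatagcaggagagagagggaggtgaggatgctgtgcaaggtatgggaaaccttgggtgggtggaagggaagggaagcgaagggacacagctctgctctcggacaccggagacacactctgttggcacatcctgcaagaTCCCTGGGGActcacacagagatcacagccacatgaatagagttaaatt

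The motifs searched were TCCCNNGGG, a form of the Ebf1 site, the octamer ATTTGCAT of Oct factors, GAGGAA of PU.1, and the E-box CAGGTG of E2A. Cd79a held CAGGTG from 154 to 149 bases before the start and GAGGAA on the opposite strand from 140 to 135 bases before it. Cd22 held TCCCNNGGG on both strands, overlapping, between 49 and 40 bases before the start, and CAGGTG on the opposite strand from 245 to 240 bases before it. Among all 32851 promoter windows of the table, 5.6% held TCCCNNGGG, 1.6% the octamer, 23.3% GAGGAA and 17.2% CAGGTG. A match describes letters only.

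The values are FPKM (fragments scaled by transcript length and by the mapped total, a level that is comparable between genes per length) after quantile normalisation, which gives every library the same distribution. Sequencing depth is unknown because only FPKM were given. The library labelled ΔNp63 replicate 2 stood apart from the others: its median correlation with the other libraries across genes was 0.847, against 0.915 to 0.956 elsewhere. Results are therefore given with and without it. Of the targeted genes, Trp63 had its most abundant entry at 5.21 and 3.38 FPKM in control tumours, 6.57, 1.05 and 9.91 FPKM in tumours labelled ΔNp63, and 6.38 to 13.8 FPKM in tumours labelled ΔNp73. It was above both controls in 2 of the 3 tumours labelled ΔNp63. Whether this entry covers the deleted part is not given in the sources used here, so it does not check the deletion, and directions below rest on the labels. Trp73 was not analysed here. The more abundant entry of Trp53, the gene deleted in all mice per the labels, was at 81.0 and 67.6 FPKM in control tumours, 17.3, 16.1 and 46.3 FPKM in tumours labelled ΔNp63, and 66.1, 75.9 and 10.96 FPKM in tumours labelled ΔNp73. It differed between libraries of a group, and whether it covers the deleted part is likewise not given.

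B cell genes were present at a low level in 7 of the 8 tumours, and 6 of the 9 were at 2.86% to 11.4% of the median of those 7 in the remaining tumour. The lowest share, 2.86%, is that of Fcrla by the more abundant of its 2 entries. By their sum Fcrla was at 0.470 FPKM in that tumour and 1.98 to 3.20 FPKM in the other 7. Summed over the 9 members, the level was 37.2 and 39.1 FPKM in the controls, 76.6, 7.87 and 53.5 in ΔNp63-labelled replicates 1 to 3, and 54.7, 50.1 and 49.4 in ΔNp73-labelled replicates 1 to 3. The 14 thymocyte and T cell markers, Cd3e and Thy1 among them, summed to between 2590 and 5972 FPKM in the same libraries. ΔNp63-labelled replicate 2 was lowest of all 8 libraries for 8 of the 9 members, a position it held for 32.8% of all 12921 genes tested. It was below 25% of the median of the other 7 libraries for 6 of the 9 members, against 6.43% of all genes. Among the 9565 genes within the members' range of mean level the shares were 32.1% and 6.52%. These cut-offs were chosen after the values were seen. The exception to the lowest position was Cd22.

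**Figure D1:**
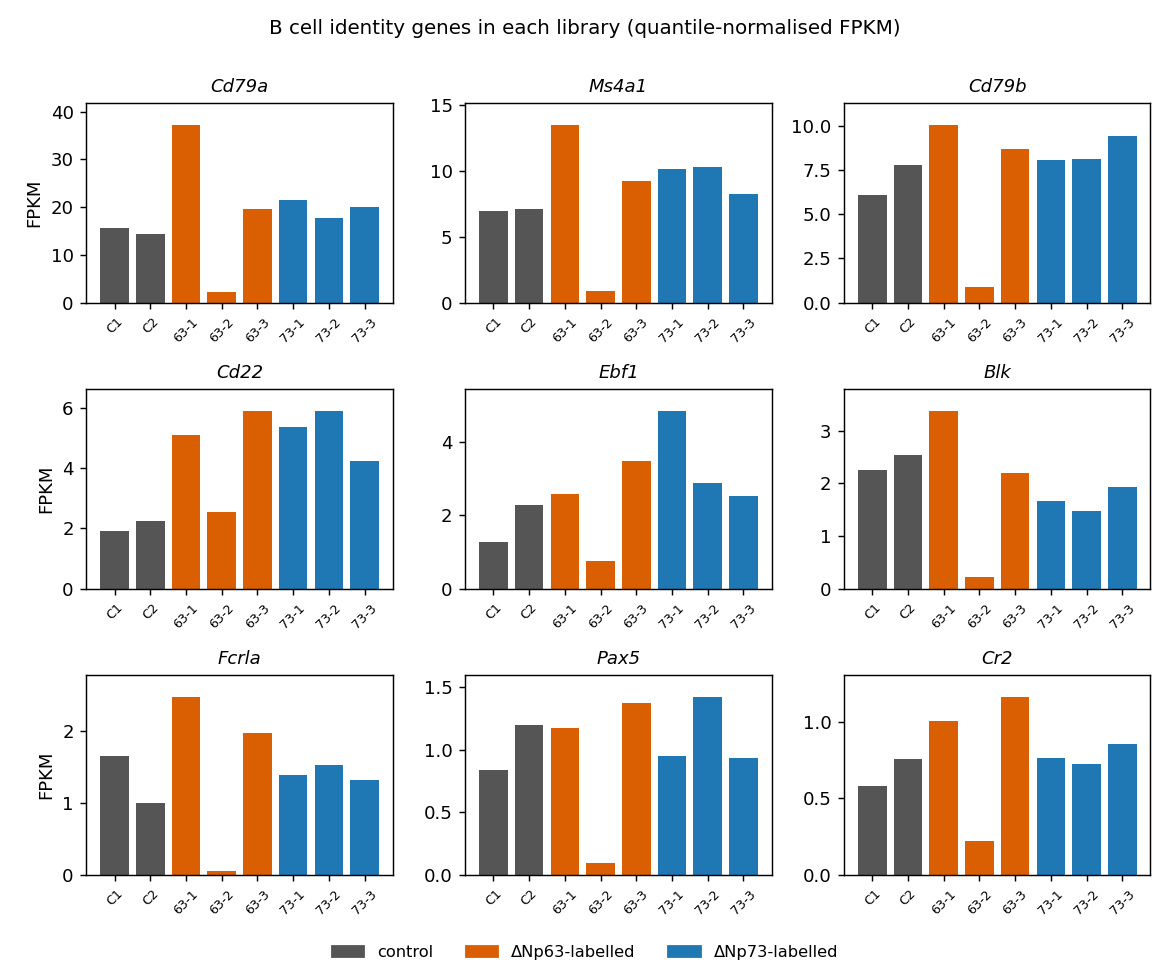
FPKM of each B cell identity gene in every library, as bars from 0 on a scale of its own per gene (C, control; 63, ΔNp63-labelled; 73, ΔNp73-labelled; the number after the dash is the replicate). The bar of ΔNp63-labelled replicate 2 is the lowest for 8 of the 9 genes, and for Cd22 the 2 controls are lower.

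Cd79a, a signalling chain of the B cell receptor, was the most abundant member. It was at 15.7 and 14.3 FPKM in control tumours, 37.3, 2.23 and 19.5 FPKM in tumours labelled ΔNp63, and 21.5, 17.7 and 19.9 FPKM in tumours labelled ΔNp73. The ΔNp73-labelled libraries lay just above both controls, while the ΔNp63-labelled group held both the highest and the lowest library of the 8. Cd79b, its partner chain, was at 6.09 and 7.77 FPKM in control tumours, 10.1, 0.883 and 8.68 FPKM in tumours labelled ΔNp63, and 8.10, 8.14 and 9.46 FPKM in tumours labelled ΔNp73. The order was alike, with ΔNp63-labelled replicate 1 highest and replicate 2 lowest. The ratio of Cd79a to Cd79b was between 1.83 and 3.70 in all 8 libraries, and 2.53 in ΔNp63-labelled replicate 2. Both chains were thus low there in about the same proportion.

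Blk, the B lymphoid kinase, was at 2.24 and 2.53 FPKM in control tumours, 3.38, 0.220 and 2.20 FPKM in tumours labelled ΔNp63, and 1.66, 1.48 and 1.93 FPKM in tumours labelled ΔNp73. Taking Fcrla by its more abundant entry, Blk was the only member with all 3 ΔNp73-labelled libraries below both controls. By the sum of its entries, described below, Fcrla was below both in all 3 as well. Blk is also made by some γδ T cells. Of the 6 markers listed for γδ T cells with a value in the table (Blk among them), the summed level was 36.9 FPKM in ΔNp63-labelled replicate 2 and 54.9 to 71.0 elsewhere, and 2 of the 5 that passed the filter were lowest there. Others of the list were highest there: Sox13 was at 2.59 FPKM, against 1.24 to 2.16 elsewhere, and Cd163l1, which did not pass the filter, was at 5.51 FPKM, against 0.167 to 0.324. The part of such cells in the Blk values was not tested.

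Ms4a1, which encodes CD20, was at 6.93 and 7.08 FPKM in control tumours, 13.5, 0.890 and 9.24 FPKM in tumours labelled ΔNp63, and 10.1, 10.3 and 8.20 FPKM in tumours labelled ΔNp73. It followed Cd79a closely, with a ratio of Cd79a to Ms4a1 between 1.72 and 2.76 in all 8 libraries. Cr2, the complement receptor, was the least abundant member, at 0.584 and 0.760 FPKM in control tumours, 1.01, 0.219 and 1.17 FPKM in tumours labelled ΔNp63, and 0.768, 0.727 and 0.855 FPKM in tumours labelled ΔNp73. It reached 1 FPKM only in ΔNp63-labelled replicates 1 and 3, and passed the filter on low values through these alone. Cr2 is also expressed by follicular dendritic cells. The 6 markers of such cells with a value, Cr2 among them, summed to 51.3 and 62.1 FPKM in control tumours, 213, 35.9 and 191 FPKM in tumours labelled ΔNp63, and 301, 269 and 182 FPKM in tumours labelled ΔNp73, and 4 of the 6 were lowest in ΔNp63-labelled replicate 2. Cxcl13, a chemokine that such cells make, was at 3.60 and 5.31 FPKM in control tumours, 79.7, 7.57 and 105 FPKM in tumours labelled ΔNp63, and 26.0 to 82.3 FPKM in tumours labelled ΔNp73. Cxcl13 and Clu made up most of the sum in every library. Fcer2a of the same list went the other way, at 1.99 and 2.74 FPKM in control tumours and 0.983 to 1.59 FPKM in the libraries given Cre. The part of these cells in the Cr2 values was not tested.

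Cd22, the inhibitory lectin of B cells, did not follow the other members. It was at 1.91 and 2.23 FPKM in control tumours, 5.09, 2.53 and 5.91 FPKM in tumours labelled ΔNp63, and 5.37, 5.90 and 4.22 FPKM in tumours labelled ΔNp73. All 6 libraries given Cre lay above both controls, as they did for 8.47% of all genes tested, and ΔNp63-labelled replicate 2 was the lowest of these 6. The ratio of Cd79a to Cd22 was 0.882 in that library, against 3.01 to 8.22 in the other 7. Cd22 made up 32.1% of the summed member level there and 5.13% to 11.8% elsewhere.

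**Figure D2:**
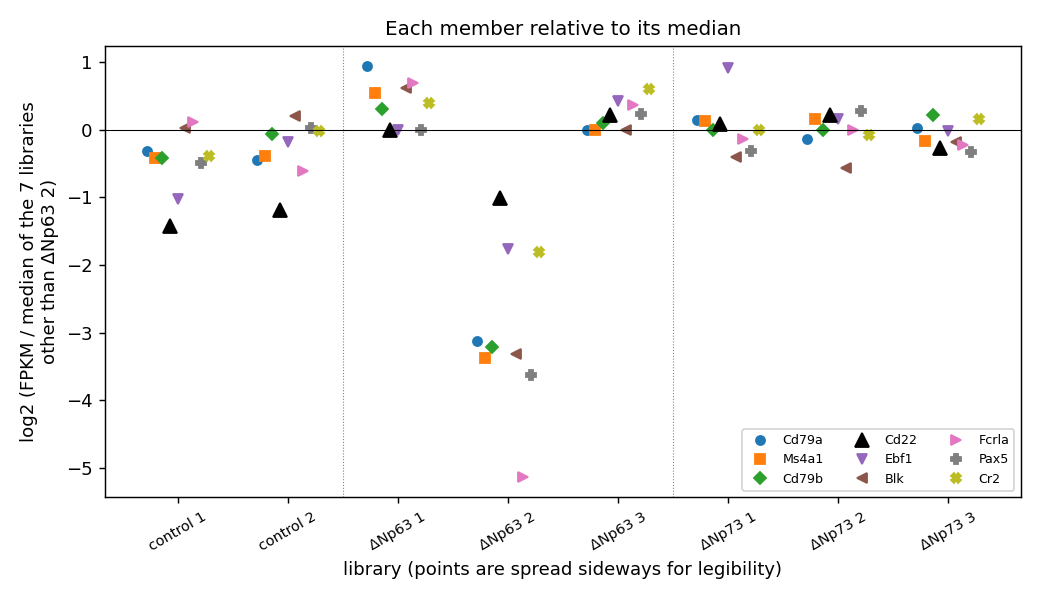
Level of each B cell identity gene in each library relative to the gene's median over the 7 libraries other than ΔNp63-labelled replicate 2, on a log2 axis where 0 is that median. In that library 6 genes lie more than 3 log2 units below their median, Fcrla among them by its more abundant entry. Ebf1 and Cr2 are less far below, and Cd22 (black triangles) is at 49.7% of its median. Cd22 lies lowest in the controls.

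Pax5, the factor that maintains B cell identity, was at 0.835 and 1.19 FPKM in control tumours, 1.18, 0.0951 and 1.37 FPKM in tumours labelled ΔNp63, and 0.949, 1.43 and 0.932 FPKM in tumours labelled ΔNp73. Apart from ΔNp63-labelled replicate 2, where it was at 8.08% of the median of the others, its libraries spanned a range of 1.71-fold and the groups overlapped. Ebf1 was at 1.27 and 2.27 FPKM in control tumours, 2.58, 0.762 and 3.47 FPKM in tumours labelled ΔNp63, and 4.85, 2.89 and 2.53 FPKM in tumours labelled ΔNp73. It was higher in all 3 ΔNp73-labelled libraries than in both controls, and at 29.5% of the median in ΔNp63-labelled replicate 2, a smaller difference than for Pax5. Ebf1 is also expressed by fat cells and stromal cells. The 7 fat cell markers summed to 2462 FPKM in ΔNp73-labelled replicate 1, where Ebf1 was highest, to 102 in ΔNp63-labelled replicate 2, where it was lowest, and to 157 and 910 in the controls. They summed to 2032 and 1405 FPKM in ΔNp63-labelled replicates 1 and 3, and to 206 and 214 in ΔNp73-labelled replicates 2 and 3. The part of fat and stromal cells in the Ebf1 values was not tested.

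Fcrla had 2 transcript entries. The more abundant was at 1.65 and 1.002 FPKM in control tumours, 2.48, 0.0437 and 1.98 FPKM in tumours labelled ΔNp63, and 1.39, 1.53 and 1.31 FPKM in tumours labelled ΔNp73. For the other entry, controls had 1.03 and 2.20 FPKM and ΔNp73-labelled tumours 0.676 to 1.18. It was at 6.91e-05 and 0.000199 FPKM in ΔNp63-labelled replicates 1 and 3, where the more abundant entry was highest, and at 0.427 in replicate 2. The split between the entries thus differed between libraries, and values of single entries are uncertain because the transcripts share sequence. Summed over both entries, Fcrla was at 2.69 and 3.20 FPKM in control tumours, 2.48, 0.470 and 1.98 FPKM in tumours labelled ΔNp63, and 2.46, 2.21 and 2.50 FPKM in tumours labelled ΔNp73. By the sum, all 6 libraries given Cre lay below both controls. The direction for Fcrla therefore depends on how the entries are combined. The share of all genes with these 6 libraries below both controls was not computed. With 1 entry per symbol, 17.7% of all genes were lower without overlap in the ΔNp63-labelled group and 35.7% in the ΔNp73-labelled group.

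The ΔNp63-labelled tumours, given Cre, were compared with controls given none, so effects of Cre and of the deletion cannot be told apart here. Differences are given as log2 fold changes (log2FC) of log2(FPKM + 1) with their standard error (SE), tested with limma and Benjamini-Hochberg adjustment over all 12921 genes. The added 1 FPKM makes the log2FC of low members such as Pax5, Fcrla and Cr2 smaller than the change in FPKM. Of the 9 members 0 passed an adjusted p of 0.05, in a comparison where 0.0929% of all genes passed. At an unadjusted p under 0.05, 1 member was higher (Cd22) and 0 lower, against 5.96% and 7.03% of all genes. The median log2FC was -0.17 over the members and -0.02 over all genes, with 3 members above control and 6 below on that scale. By the ratio of mean FPKM the tally was the reverse, with 6 members above control and 3 below (Cd79b, Pax5 and Blk). For Cd79a, Ms4a1 and Fcrla the sign thus differed between the scales: the mean of logs weighs the low value of ΔNp63-labelled replicate 2 more, and the mean FPKM the high value of replicate 1. The members' SE ran from 0.26 to 0.89, so that only large differences could pass. Cd22 was at a mean of 4.51 ± 1.76 FPKM (SD, n = 3) against 2.07 ± 0.228 (SD, n = 2). Its log2FC was 0.79 (SE 0.29, adjusted p = 0.335 by limma), and it was the only member whose groups did not overlap, as 12.6% of all genes did not in that direction and 17.7% in the other.

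Without ΔNp63-labelled replicate 2 all 9 members lay above control (Cr2 passed the filter through the 2 libraries that remain), with a median log2FC of 0.48 against -0.03 over all genes. Cd22 rose, with a log2FC of 1.08 (SE 0.16, adjusted p = 0.00536 by limma), in a fit in which 22.5% of 12782 genes passed, 11.7% higher and 10.8% lower. The other 8 members did not pass. Ms4a1 was at 0.61 (SE 0.18, adjusted p = 0.0550 by limma), Cd79a at 0.81 (SE 0.27, adjusted p = 0.0699) and Blk, the nearest to no difference, at 0.14 (SE 0.18, adjusted p = 0.589). Apart from Cr2, 6 of 8 members did not overlap with control in these 2 libraries and were higher, all but Pax5 and Blk, against 31.7% of all genes. Cr2 is left out of this count, since the same 2 libraries admitted it. In the other direction 0 members and 37.1% of all genes did not overlap. These counts take Fcrla by its more abundant entry. By the sum of both entries Fcrla was at 2.48 and 1.98 FPKM in these 2 libraries, below both controls (2.69 and 3.20 FPKM).

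The same controls were then compared with the ΔNp73-labelled tumours, which also received Cre. In these tumours the B cell genes were close among replicates: the SD was 7.80% to 16.6% of the mean for 7 of the members, and 25.4% and 36.4% for Pax5 and Ebf1. Of the 9 members 0 passed by limma, in a comparison where 0.0542% of all genes passed. Cd22 alone was higher at an unadjusted p under 0.05, against 11.4% of all genes, and 0 members were lower, against 9.83%. The median log2FC was 0.28 over the members and -0.07 over all genes, with 8 members above control and Blk below. Fcrla is counted above by its more abundant entry, and with summed entries its log2FC was -0.22. Cd22 had a mean of 5.16 ± 0.855 FPKM (SD, n = 3), with a log2FC of 0.999 (SE 0.29, adjusted p = 0.131 by limma). Ebf1 was at 0.66 (SE 0.42, adjusted p = 0.392), Cd79a at 0.37 (SE 0.89, adjusted p = 0.830) and Blk at -0.34 (SE 0.48, adjusted p = 0.706).

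Cd79a, Cd79b, Ms4a1, Cd22 and Ebf1 had all 3 ΔNp73-labelled libraries above both controls, which is 5 of 9 members against 27.7% of all genes. Blk, 1 of 9, had all 3 below, against 35.7%. Fcrla is counted here by its more abundant entry. By the sum of both entries it also had all 3 below, at 2.46, 2.21 and 2.50 FPKM against 2.69 and 3.20 FPKM. ΔNp63-labelled replicate 2 enters this comparison through the shared estimate of the spread. Without it the log2FC stayed the same and the SE was smaller: Cd22 rose (SE 0.15, adjusted p = 0.00355 by limma), in a fit where 33% of all genes passed, 16.8% higher. The other 8 members did not pass, among them Ebf1 (SE 0.26, adjusted p = 0.0897) and Blk (SE 0.16, adjusted p = 0.153).

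**Figure D3:**
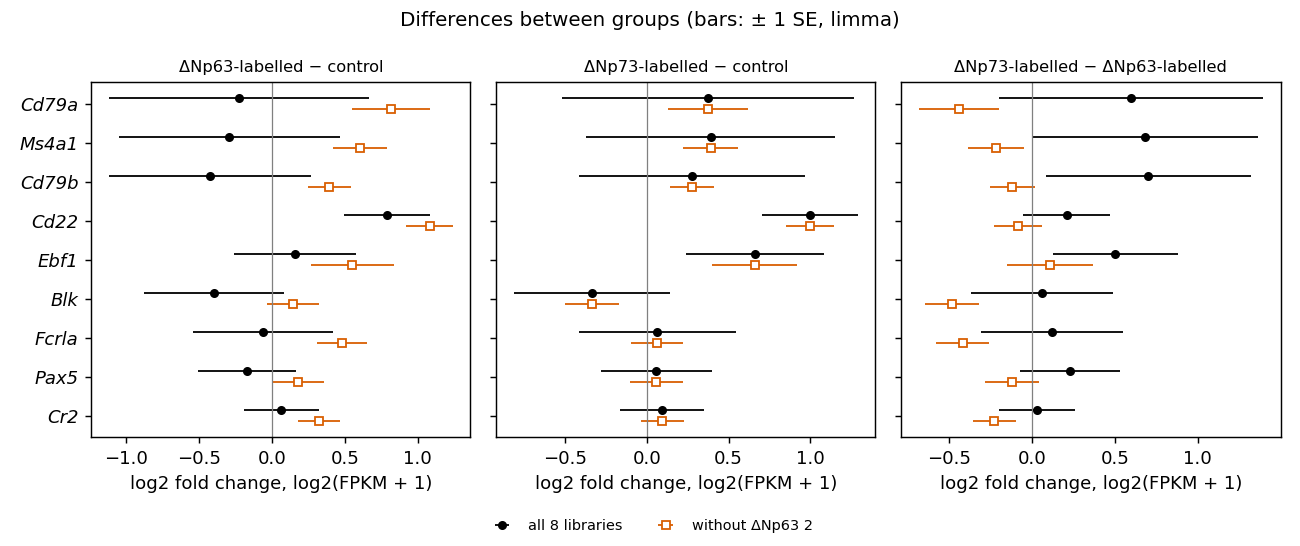
Log2 fold change of each B cell identity gene in the 3 comparisons, with bars of 1 SE from limma; filled circles are the fit with all 8 libraries and open squares the fit without ΔNp63-labelled replicate 2. The squares have shorter bars throughout, and in the ΔNp63-labelled group they lie above 0 for all 9 genes while 6 of the circles lie below 0.

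The ΔNp73-labelled and ΔNp63-labelled tumours, which both received Cre, were compared to ask whether the labelled groups differ. Of the 9 members 0 passed by limma, and 0 had an unadjusted p under 0.05, while 0.0542% of all genes passed and 6.11% were higher and 4.4% lower at that unadjusted p. For 0 members did the groups not overlap, against 10.3% of all genes higher and 8.58% lower. All 9 had a log2FC above 0 (median 0.23, against -0.02 over all genes), from 0.03 for Cr2 to 0.70 for Cd79b (SE 0.62, adjusted p = 0.598 by limma). By the ratio of mean FPKM only 6 were above 1, with Cd79a at 1.001, and Blk (0.873), Fcrla (0.940) and Cr2 (0.9797) were below 1. Without ΔNp63-labelled replicate 2 the sign turned for 8 of the 9, Ebf1 being the exception, with a median of -0.22. The lowest value was then -0.48 for Blk (SE 0.16, adjusted p = 0.243), and 0 members passed, against 0.149% of all genes. In that setting Blk and Fcrla, 2 of the 8 members other than Cr2, were lower in all 3 ΔNp73-labelled libraries than in both remaining ΔNp63-labelled ones, against 15.2% of all genes, and 0 members were higher in this way, against 15.9%. For Fcrla this held only for the more abundant entry. By the sum of both entries its groups overlapped, at 2.46, 2.21 and 2.50 FPKM against 2.48 and 1.98 FPKM.

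The comparisons with control share the same 2 control libraries, so their values are set side by side only. Leaving out a control leaves 1 library in that group, so only effect sizes are given. Without control replicate 1 or 2 the log2FC of Cd22 was 0.71 or 0.87 in the ΔNp63-labelled group. In the ΔNp73-labelled group it was 0.92 or 1.07. For Cd22 the log2FC without 1 library at a time ran from 0.60 to 1.08 in the ΔNp63-labelled group and from 0.91 to 1.11 in the ΔNp73-labelled group.

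Other B cell genes were also low in ΔNp63-labelled replicate 2. Igj, the joining chain of secreted immunoglobulin, was at 67.7 and 65.7 FPKM in control tumours, 183, 10.7 and 114 FPKM in tumours labelled ΔNp63, and 160, 184 and 166 FPKM in tumours labelled ΔNp73. Pou2af1, the B cell coactivator of octamer-binding factors, was at 9.79 and 11.2 FPKM in control tumours, 28.2, 4.46 and 15.4 FPKM in tumours labelled ΔNp63, and 17.6, 20.9 and 22.0 FPKM in tumours labelled ΔNp73. Igj and Pou2af1 were named after their values were seen. In both, as in Cd79a, the other libraries given Cre lay above the controls.

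Lists of B cell receptor signalling, B lineage transcription factors, precursor genes, mature surface genes, and germinal centre and plasma cell genes held 67 tested genes. Of these, 44 were lowest and 4 highest in ΔNp63-labelled replicate 2, which was lowest for 32.8% and highest for 31.5% of all genes. By list this was 14 of 20 signalling genes, 8 of 14 transcription factors, 3 of 6 precursor genes, 13 of 16 surface genes and 6 of 11 germinal centre and plasma cell genes. The median of the level there relative to the median of the other 7 libraries was 10.8% for the 9 members, 41.9% for signalling genes, 45.6% for transcription factors, 38.4% for precursor genes, 27.6% for surface genes, 74.2% for germinal centre and plasma cell genes and 96.2% for all genes tested. Lists of other cell types were low there too, at 40.4% for macrophage, 38.3% for dendritic cell, 40.9% for fibroblast and pericyte, 60.7% for thymocyte and T cell and 18.2% for fat cell markers. The medians of the signalling, transcription factor, precursor and surface lists lay in this range. That of the members lay below it, and that of the germinal centre and plasma cell genes above it. Many genes of these lists are also expressed by T cells or macrophages.

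With all libraries 0 of the 67 genes passed by limma in any of the 3 comparisons. By the rule for naming, the signalling genes with the smallest p in the ΔNp73-labelled group were Fcgr2b, the inhibitory Fc receptor shared with macrophages (1.72, SE 0.24, adjusted p = 0.0653), Prkcb, a protein kinase C (-0.92, SE 0.20, adjusted p = 0.0941), and the adaptor gene Blnk (0.88, SE 0.21, adjusted p = 0.0999). Among transcription factors these were Ikzf1 (-0.56), Tcf4 (0.97) and Ikzf3 (-0.50). Among surface genes they were Cd38 (1.80), Ly86 (2.37) and the IgE receptor gene Fcer2a (-0.51), and among germinal centre and plasma cell genes Fkbp11 (1.57), S1pr2 (0.64) and Mybl1 (-0.84). Dntt, which adds bases to rearranging receptor genes in both lymphoid lineages, was at -1.46 (SE 0.49, adjusted p = 0.162), Cd24a at -0.38 and Rag2 at -1.27. The median log2FC in the ΔNp73-labelled group was 0.39 for signalling genes, 0.29 for transcription factors, -0.64 for precursor genes, 0.38 for surface genes and 0.64 for germinal centre and plasma cell genes. In the ΔNp63-labelled group these medians were 0.13, 0.20, -0.48, 0.21 and 0.39.

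Without ΔNp63-labelled replicate 2, 10 of 20 signalling genes rose and Prkcb fell in each comparison with control. In the ΔNp73-labelled group 6 of 14 transcription factors rose and Ikzf1 fell, 7 of 16 surface genes rose and Fcer2a fell, 5 of 11 germinal centre and plasma cell genes rose and Mybl1 fell, and 1 of 6 precursor genes rose while Dntt and Rag2 fell, against 16.8% of all genes higher and 16.1% lower. In the ΔNp63-labelled group 6 transcription factors, 8 surface genes, 5 germinal centre and plasma cell genes and 1 precursor gene rose, against 11.7% of all genes, while Ikzf1 and Mybl1 fell, against 10.8%. In both comparisons the genes that rose included Btk, Lyn and Syk, kinases that macrophages share, and Bank1, an adaptor of B cell signalling, and Fcrl1, a B cell surface receptor. These 5 were picked after their values were seen. Bank1 was at 0.65 in both comparisons (SE 0.13 and 0.12, adjusted p = 0.0150 and 0.00752 by limma). Pax5 and Cd79b did not pass in either. A list's count beside the share of all genes is a description of these libraries.

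Markers of other cell types moved with the groups as well. The 11 macrophage markers summed to 388 and 443 FPKM in control tumours, 1049, 426 and 1120 FPKM in tumours labelled ΔNp63, and 1317, 1225 and 1015 FPKM in tumours labelled ΔNp73. In ΔNp63-labelled replicate 2 the macrophage sum lay within the range of the controls, and 1 of the 11 was lowest there, while the B cell sum was below both controls. Of the markers of other cells, 8 of 14 for thymocytes and T cells, 4 of 6 for dendritic cells, 4 of 8 for fibroblasts and pericytes and 3 of 7 for fat cells were lowest in that library. The 14 thymocyte and T cell markers summed to 5584 and 5972 FPKM in control tumours, 3557, 2673 and 4445 FPKM in tumours labelled ΔNp63, and 2590, 3333 and 3912 FPKM in tumours labelled ΔNp73. The part of these cell types in the B cell values was not tested.

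**Figure D4:**
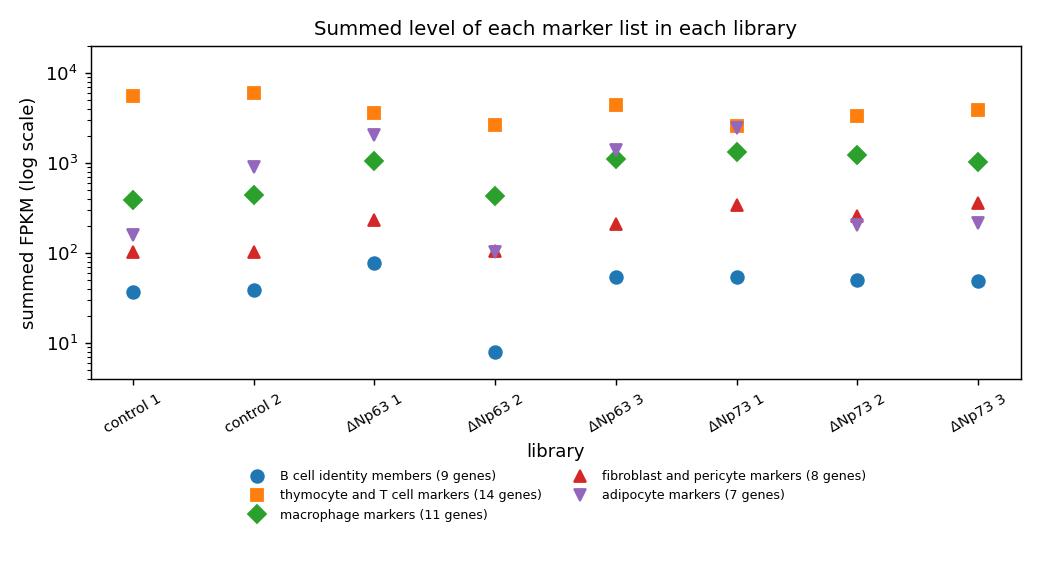
Summed FPKM of the 9 B cell identity genes and of 4 lists of markers of other cell types in each library, on a log axis, with 1 point per list and library. The B cell sum is 7.87 FPKM in ΔNp63-labelled replicate 2 and 37.2 to 76.6 in the other 7 libraries, while the macrophage sum of that library is near those of the controls.

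The genes whose pattern over the 8 libraries was most like the mean of the members were Copz2, Agpat4, Cd84, Cr1l and Lax1. Likeness was measured as the root mean square difference between standardised log2 profiles, which was 0.145 for Copz2 and 0.163 for Lax1. Among the members themselves it was smallest for Ms4a1 (0.192) and Cd79b (0.238) and largest for Cd22 (0.748). Cd84, a surface receptor of lymphocytes and other leukocytes, was at 31.7 and 30.5 FPKM in control tumours, 45.5, 12.7 and 48.0 FPKM in tumours labelled ΔNp63, and 41.5, 42.4 and 39.7 FPKM in tumours labelled ΔNp73. Lax1, a signalling adaptor of lymphocytes, was at 2.59 FPKM in ΔNp63-labelled replicate 2 and at 6.41 to 10.1 elsewhere.

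For Cd22 alone, a search added after its values were seen, the nearest genes were Ms4a6b, Lgals3bp, C1qc, Irf9 and Dhx58, with differences from 0.108 to 0.144. C1qc, a complement chain made by macrophages, was at 59.6 and 72.0 FPKM in control tumours, 180, 69.5 and 210 FPKM in tumours labelled ΔNp63, and 184, 207 and 162 FPKM in tumours labelled ΔNp73. Irf9 and Dhx58 are genes of the interferon response. Irf9 was at 7.54 and 8.61 FPKM in control tumours, 9.90 FPKM in ΔNp63-labelled replicate 2, and 15.3 to 18.7 FPKM in the other libraries given Cre.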

How the data were processed

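RNA of 8 tumours was sequenced after TruSeq library preparation, per the labels' protocols. The authors deposited 1 table of FPKM per RefSeq transcript, quantile-normalised between libraries per the file name; the submitters' processing notes name TopHat2 2.0, Cufflinks 2.0 and mm9, with no roles. It holds 16589 entries, 35 of whose symbols had become dates and were restored from the RefSeq identifier. From these values, the entry with the highest mean was kept per symbol, and genes with at least 1 FPKM in at least 2 libraries were tested with limma 3.58.1 in R 4.3.3 on log2(FPKM + 1), with an intensity trend, 2-sided, in 1 model of all 8 libraries (5 residual degrees of freedom). The p-values were adjusted over all tested genes by Benjamini-Hochberg, threshold 0.05. The procedure was tested on simulated data with no library standing apart and no gene's spread above the median spread. It was therefore not tested for a library such as ΔNp63-labelled replicate 2. Named genes are the 9 members, the 3 smallest p per B cell list in the comparison with most listed genes at unadjusted p under 0.05 (since 0 passed), and the 5 genes nearest the members' mean profile. Members and lists were chosen with earlier results of these data known. Vpreb1, Vpreb2 and Igll1 were not analysed here, and some items the rule names are not reported here. Replicate numbers follow accession order and are only names. Depth is unknown, so no counting error is given.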

Additional observations from a re-analysis of the deposited data

How the results depend on the processing

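The 16 alternatives were pseudocounts of 0.1 and 0.5, no filter and a filter of 4 libraries, summed entries, no intensity trend, array weights (which weigh libraries by their spread), only the 2 groups compared, and leaving out each library. No paired analysis was possible because the labels give no replicate numbers. In the ΔNp63-labelled comparison 12 genes passed, 5 with the filter of 4 libraries, 4480 with array weights, 5 with only the 2 groups and 3 to 2882 leaving out 1 library; 0 members passed, 2 with array weights and 0 to 1 leaving out 1 library. In the ΔNp73-labelled comparison 7 genes passed, 18 and 11 with pseudocounts of 0.1 and 0.5, 2 with the filter of 4, 6569 with array weights, 3890 with only the 2 groups and 0 to 4212 leaving out 1 library; 0 members passed, 2 with array weights, 1 with only the 2 groups and 0 to 1 leaving out 1 library. Between the deletion groups 7 genes passed, 3 with the filter of 4, 344 with array weights and 6 to 19 leaving out 1 library, and 0 members throughout. With array weights the log2FC against control in the ΔNp63-labelled group turned to 0.90 for Cd79a, 0.37 for Cd79b, 0.63 for Ms4a1, 0.14 for Pax5, 0.19 for Blk and 0.48 for Fcrla, and between the deletion groups to -0.61 for Cd79a, -0.13 for Cd79b, -0.18 for Ms4a1, -0.59 for Blk, -0.38 for Fcrla and -0.22 for Cr2. Summed entries turned Fcrla to -0.22 in the ΔNp73-labelled group, and a pseudocount of 0.1 turned Cr2 to -0.0013 in the ΔNp63-labelled group. Leaving out 1 library moved the log2FC in the ΔNp63-labelled group from -0.97 to 0.81 for Cd79a, -0.89 to 0.39 for Cd79b, -0.86 to 0.61 for Ms4a1, -0.38 to 0.18 for Pax5, -0.78 to 0.14 for Blk, -0.12 to 0.55 for Ebf1, -0.39 to 0.48 for Fcrla and -0.012 to 0.32 for Cr2. In the ΔNp73-labelled group it moved Pax5 from -0.070 to 0.19 and Fcrla from -0.14 to 0.27. Between the deletion groups the ranges were -0.44 to 1.34 for Cd79a, -0.12 to 1.16 for Cd79b, -0.22 to 1.25 for Ms4a1, -0.12 to 0.44 for Pax5, -0.084 to 0.40 for Cd22, -0.48 to 0.44 for Blk, -0.42 to 0.45 for Fcrla and -0.23 to 0.053 for Cr2. Of the 22 sign changes when 1 library was left out, 14 came with ΔNp63-labelled replicate 2 and 4 with control replicate 1; the cause was not tested.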
